A study of Mus musculus with 3 samples.

Results

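The genes described here are 36 genes of the autophagy machinery, chosen by gene symbol from what their products are known to do, among 55536 annotated genes. They fall into 8 roles: the initiation kinase complex, the class III phosphatidylinositol 3-kinase (PI3-kinase) complexes, membrane supply, conjugation, the ATG4 proteases, the Atg8 family, cargo receptors and transcription factors. All 36 symbols matched a single annotated gene. The cells were bone-marrow-derived macrophages (BMDM), which are primary macrophages grown in culture from bone marrow, of the mouse strain C57BL/6J. They had been treated with 100 ng/ml Lipid A, the part of bacterial lipopolysaccharide that activates the receptor TLR4, for 30 min. RNA of the cytosolic fraction was depleted of ribosomal RNA and sequenced as total RNA, from 1 µg per library and fragments of 250 to 400 nt. There is 1 group of 3 libraries, replicates 1, 2 and 3, which the labels call biological replicates but give the same donor record. Sex and age are not given. P-values therefore measure only the spread between these samples, and some of it may be technical. Without unstimulated cells or a nuclear fraction, which were not analysed here, no gene is called induced or enriched, and the values are levels at a single time.

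Autophagy encloses cytoplasm, damaged organelles or bacteria in a double-membraned vesicle, the autophagosome, which then fuses with the lysosome. A kinase complex starts the process, a lipid kinase complex marks the membrane where the vesicle grows, and transfer proteins supply it with lipid. Ubiquitin-like proteins of the Atg8 family (the LC3 and GABARAP proteins) are trimmed by ATG4 proteases and coupled to that membrane, where cargo receptors bind them. In macrophages the pathway is known for the degradation of intracellular bacteria, and parts of the conjugation machinery also act on single-membraned phagosomes.

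Replicate 1 had 23403552 expected counts on genes, replicate 2 had 50435201 and replicate 3 had 35785896. Of these the 36 genes held 50613, 134767 and 75880, or 0.232 ± 0.031% (mean ± SD, n = 3, here and below). The smallest count of any of the 36 in any library was 116. Levels are given in TPM, in which counts are divided by transcript length and brought to a total that is fixed for all libraries. Genes annotated as miscellaneous RNA held 69.1, 57.6 and 66.9% of that total in replicates 1, 2 and 3, and nuclear protein-coding genes 22.3, 34.4 and 24.3%. For 33 of the 36 genes the highest TPM was in replicate 2, and for 15 after rescaling to protein-coding genes; differences between libraries are therefore given in CPM, counts over a TMM-scaled library size. All 8 macrophage markers reached 10 TPM, with summed levels of 6068 to 8068 TPM. The 5 stromal markers summed to 22.2 TPM in replicate 1, against 0.03 and 0.11 TPM in replicates 2 and 3, so replicate 1 stands apart there, with Col1a1 at 8.94, 0.00 and 0.04 TPM in replicates 1, 2 and 3. The 6 neutrophil markers summed to 26.7, 59.9 and 44.1 TPM in replicates 1, 2 and 3, with Ly6g at 0 in replicates 1 and 2. In CPM they summed to 87.6, 79.1 and 93.8, so replicate 2 was lowest. Csf3r held most of that sum, with 80.6, 62.7 and 77.5 CPM. S100a8 (2.37, 5.72 and 4.82 CPM) and S100a9 (4.03, 10.2 and 10.3 CPM) were lowest in replicate 1. Markers of T, B and NK cells and of erythroid and mast cells summed to at most 0.09 TPM in any library. In bulk RNA, fewer cells of a type and less RNA per cell cannot be told apart, and the part of these cells in the results below was not tested.

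All 36 genes were present: each had a mean of 1 TPM or more, a level that 42.7% of the 22015 nuclear protein-coding genes reached. Of the 36, 14 had 10 TPM or more (18.0% of protein-coding genes) and 1, Gabarap, had 100 TPM or more (1.91% of protein-coding genes). Their median level was 8.37 TPM, beside 5.45 TPM over the 11576 protein-coding genes whose counts averaged at least 10. The sum over the 36 was 726 ± 254 TPM. The 5 genes of the Atg8 family held 56.5 ± 2.8% of that sum and Gabarap alone 40.8 ± 3.0%. Becn1 apart, the genes of the initiation, PI3-kinase and membrane supply roles lay between 2.95 TPM (Wipi1) and 11.9 TPM (Ulk2).

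**Figure D1:**
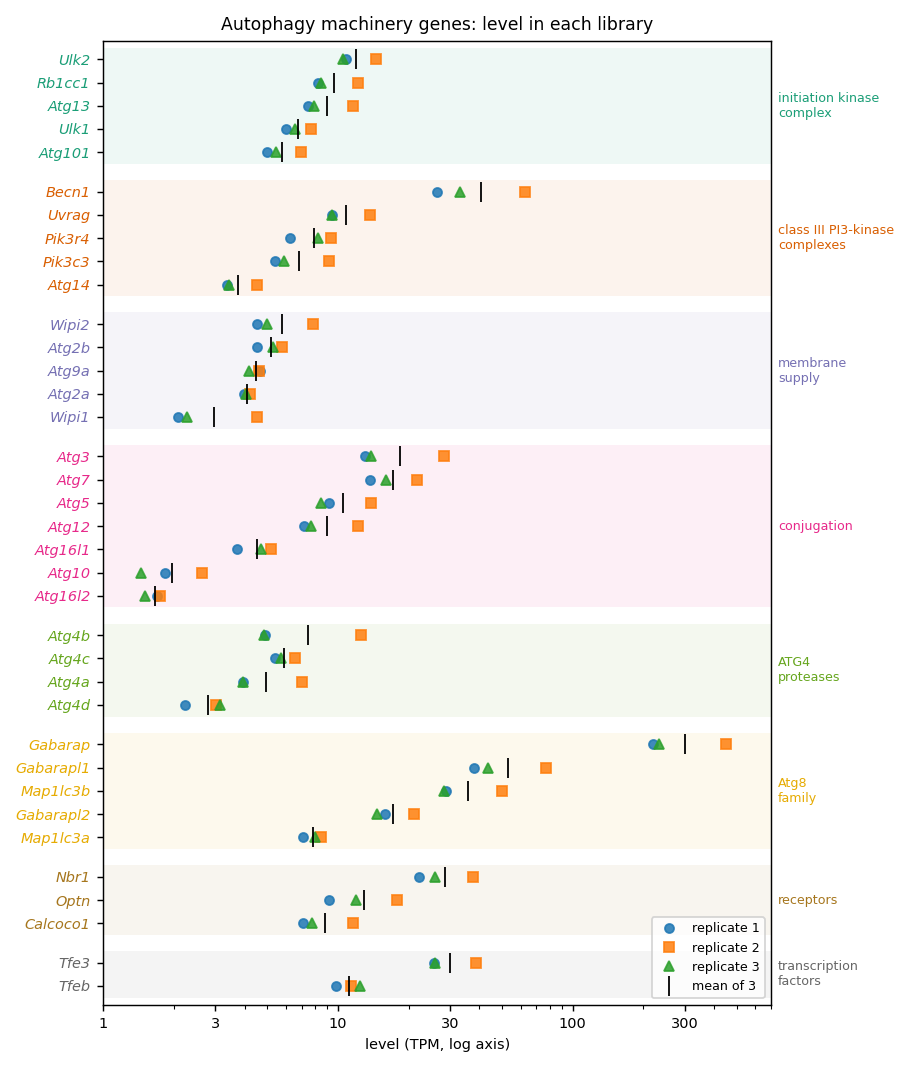
Level of each of the 36 genes in TPM (log axis) in replicates 1, 2 and 3 (points), with the mean of the 3 libraries (black bar), grouped by role and ordered by mean level. Gabarap stands at a mean of 301 TPM, and Atg16l2 is the lowest at 1.65 TPM.

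The initiation kinase complex joins the kinase ULK1 or ULK2 to the adaptors ATG13 and ATG101 and the scaffold FIP200, which Rb1cc1 encodes. Its 5 genes lay in a narrow band of 5.80 to 11.9 TPM. Ulk2 had 10.8, 14.5 and 10.5 TPM in replicates 1, 2 and 3. Rb1cc1 had 8.18, 12.2 and 8.45 TPM, and Atg13 had 7.45, 11.5 and 7.93 TPM, in the same order. Each of the 3 was highest in replicate 2 in TPM, with close values in replicates 1 and 3. In CPM, Ulk2 was lowest in replicate 2, with 112.7, 101.4 and 104.6 in replicates 1, 2 and 3. Rb1cc1 (75.7, 76.1 and 67.5 CPM) and Atg13 (47.95, 51.2 and 46.7 CPM) were highest in replicate 2. Atg101, the lowest, had 4.99, 6.94 and 5.46 TPM, and Ulk1 averaged 6.73 ± 0.83 TPM. In every library Ulk1 lay below Ulk2, with log2 ratios of -0.83, -0.91 and -0.67 (mean -0.81 ± 0.12).

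The class III PI3-kinase complexes pair the lipid kinase VPS34 (Pik3c3) and its regulatory subunit VPS15 (Pik3r4) with beclin 1 (Becn1) and with either ATG14, which directs the complex to the growing autophagosome, or UVRAG, known for the endosomal form. Becn1 had 26.4, 62.6 and 33.1 TPM in replicates 1, 2 and 3, but most of this level came from transcripts annotated as non-coding, as described below. Uvrag had 9.46, 13.7 and 9.40 TPM and Pik3r4 had 6.22, 9.32 and 8.22 TPM. Atg14, the lowest, had 3.35, 4.52 and 3.42 TPM. Pik3c3 averaged 6.81 ± 2.07 TPM. The ratio of Atg14 to Uvrag was steady, at -1.47, -1.57 and -1.43 on the log2 scale (mean -1.49 ± 0.07), so Atg14 lay at 0.355 times the level of Uvrag. In a second transcript table, deposited for the same libraries, the mean was -2.21.

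Genes of membrane supply had the lowest median of the 8 roles, 4.48 TPM, and none reached 10 TPM. ATG2A and ATG2B move lipid into the growing membrane, ATG9A is the scramblase of the seed vesicles, and WIPI1 and WIPI2 bind the lipid that VPS34 makes. Wipi2, whose product recruits ATG16L1, had 4.50, 7.83 and 5.0 TPM in replicates 1, 2 and 3. Atg2b had 4.52, 5.76 and 5.27 TPM, and Atg9a had 4.63, 4.62 and 4.18 TPM. Wipi1, the lowest, had 2.08, 4.51 and 2.27 TPM, and Atg2a averaged 4.09 ± 0.13 TPM. Wipi2 exceeded Wipi1 in each library, by 0.99 ± 0.18 on the log2 scale, and Atg2a lay below Atg2b in each, by a log2 ratio of -0.33 ± 0.13. The order of Atg2a and Atg2b did not hold in every library in the second transcript table (mean -0.03) or with coding transcripts only (-0.05). Exons of Atg9a overlap those of Ankzf1 (352 mean counts, against 969 for Atg9a) and exons of Atg2b those of Gskip (742 against 1627), both on the opposite strand. Whether counting used the strand is not given, so reads of such pairs cannot be told apart with certainty.

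Conjugation enzymes spanned a wider range, 1.65 to 18.3 TPM. ATG7 activates both ubiquitin-like proteins, ATG3 passes LC3 and GABARAP proteins to lipid, ATG10 passes ATG12 to ATG5, and ATG16L1 directs the finished ATG12-ATG5 conjugate to the membrane. Atg3 had 13.0, 28.3 and 13.8 TPM in replicates 1, 2 and 3. Atg7 had 13.7, 21.8 and 16.1 TPM, and Atg5 had 9.11, 13.9 and 8.49 TPM. Atg12 averaged 8.99 ± 2.74 TPM and Atg16l1 4.53 ± 0.74 TPM. The E2-like enzyme genes thus lay far apart, since Atg10 averaged only 1.97 ± 0.60 TPM. Atg16l2, the paralogue of Atg16l1, was the lowest of all 36 with 1.70, 1.75 and 1.51 TPM. Atg16l1 exceeded it by log2 ratios of 1.09, 1.51 and 1.58 (mean 1.39 ± 0.27), but not in every library of the second transcript table (mean 0.65), and by 2.00 with coding transcripts only. Exons of Atg16l2 overlap the opposite-strand gene Fchsd2, which had 4661 mean counts against 270.3 for Atg16l2, so the level of Atg16l2 is uncertain.

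The ATG4 proteases trim the ends of new Atg8 proteins and remove them from membranes again. Atg4b, which encodes the broadest of these proteases, had 4.88, 12.6 and 4.86 TPM in replicates 1, 2 and 3. Atg4c had 5.37, 6.58 and 5.69 TPM, and Atg4a had 3.94, 6.99 and 3.93 TPM. Atg4d had 2.22, 3.03 and 3.14 TPM, and overlaps the opposite-strand gene Kri1, which had 876 mean counts against 395 for Atg4d. Atg4b lay above Atg4a and Atg4d in every library (log2 ratios 0.48 ± 0.31 and 1.24 ± 0.71). With coding transcripts only, the ratio to Atg4a was 0.21 and not positive in every library, and that to Atg4d was 3.19. Against Atg4c it was higher only in replicate 2, with log2 ratios of -0.14, 0.92 and -0.22, so their order was not settled. The jump of Atg4b in replicate 2 was absent from its counts, at 32.5, 32.7 and 29.7 CPM. It came with a shorter estimated transcript length, an effective 1852 nt in replicate 2 against 3269 and 3311 nt in replicates 1 and 3. In replicate 2, 26.0% of the TPM of Atg4b was assigned to the short coding transcript Atg4b-203 (513 nt), which was at 0 in the other libraries. The second transcript table assigned Atg4b-203 26.2, 40.5 and 24.0% in replicates 1, 2 and 3. Without replicate 2 the mean of Atg4b was 4.87 TPM, against 7.43 ± 4.43 TPM over all 3.

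The Atg8 family carried the highest levels, and the ends of the coding regions of 4 of its 5 genes are shown because they are the site at which the ATG4 proteases act. The last 30 coding bases before the stop codon of the leading coding transcript (GENCODE M21, mm10, plus strand) are given 5′ to 3′, and capitals mark the last codon starting with GG, the glycine after which ATG4 cuts.
Map1lc3a (Map1lc3a-201, chr2:155277605-155277634): gtctacgcctcccaagaaaccttcGGCttc
Gabarap (Gabarap-201, chr11:69994492-69994521): gcctacagtgatgaaagcgtctatGGTctg
Gabarapl1 (Gabarapl1-201, chr6:129541135-129541164): gcctacagtgatgaaagtgtctatGGAaaa
Gabarapl2 (Gabarapl2-201, chr8:111952373-111952402): gcctacagcggagagaacacttttGGCttc
A single codon followed the glycine in each of these 4 genes. The coding regions held 363 bases in Map1lc3a and 351 in each of the 3 GABARAP genes.

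Gabarap (ENSMUSG00000018567.14, chromosome 11, 69991143 to 69994951, mm10) had 219, 450.45 and 233 TPM in replicates 1, 2 and 3, and ranked 107 among nuclear protein-coding genes. Gabarapl1 had 37.9, 77.1 and 43.6 TPM, and Map1lc3b, which encodes the LC3 protein most used to mark autophagosomes, had 28.8, 50.1 and 28.1 TPM. All 3 were highest in replicate 2, in TPM and in CPM. In TPM, replicates 1 and 3 lay closer to each other than to replicate 2. In CPM, Map1lc3b had 132.5, 143.5 and 119.1 in replicates 1, 2 and 3, so replicate 1 lay closer to replicate 2 than to replicate 3. Gabarapl2, which encodes the protein also called GATE-16, averaged 17.2 ± 3.4 TPM. Map1lc3a was the lowest with 7.11, 8.46 and 7.95 TPM. Exons of Map1lc3b overlap those of the opposite-strand gene Zcchc14, which had 531 mean counts against 4937 for Map1lc3b. Reads of this pair, too, cannot be told apart with certainty.

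Within each library Gabarap exceeded Gabarapl1 by nearly the same factor, with log2 ratios of 2.53, 2.55 and 2.41 (mean 2.50 ± 0.07, or 5.65-fold). Over Gabarapl2 the ratios were 3.78, 4.42 and 3.98 (mean 4.06 ± 0.32). Map1lc3b exceeded Map1lc3a by 2.00, 2.55 and 1.81 (mean 2.12 ± 0.38). Summed, the 3 GABARAP genes had 371 ± 154 TPM and the 2 LC3 genes 43.5 ± 13.0 TPM, a log2 ratio of 3.05 ± 0.16 or 8.29-fold. Gabarapl2 lay below Map1lc3b in every library (-0.86, -1.25 and -0.94), so not every GABARAP gene stood above every LC3 gene. In the second transcript table the summed GABARAP genes exceeded the LC3 genes by a mean log2 ratio of 2.60. The means there were 2.19 for Gabarap over Gabarapl1 and 3.54 for Gabarap over Gabarapl2. They were 2.54 for Map1lc3b over Map1lc3a and -1.10 for Gabarapl2 over Map1lc3b.

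**Figure D2:**
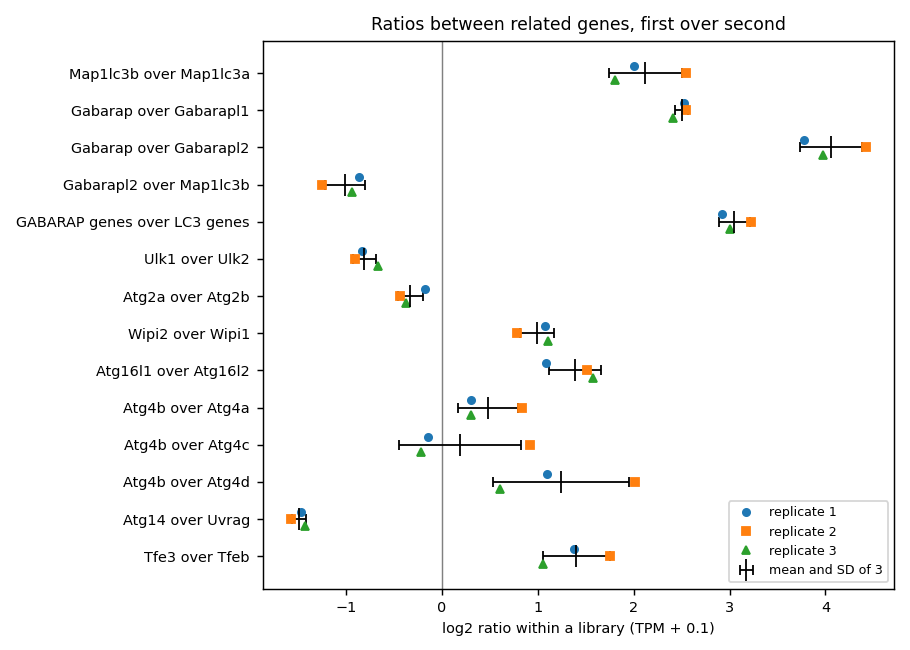
Log2 ratio of TPM + 0.1 within each library for 14 pairs of related genes, first over second, in replicates 1, 2 and 3 (points) with mean and SD (bars). In 13 pairs all 3 libraries lie on the same side of 0, and for Atg4b over Atg4c replicate 2 lies on the other side.

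The plot of ratios sets these pairs beside each other on a scale that does not depend on library totals. Of 14 pairs compared, 13 had the same sign in all 3 libraries. With 3 libraries, the exact permutation test that flips the signs of the ratios (two-sided) cannot go below p = 0.25. This exact permutation test gave p = 0.25 for each of those 13 pairs and p = 1.00 for Atg4b over Atg4c, so none passed 0.05, with or without adjustment.

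Of the cargo receptors, Nbr1 had 22.1, 37.7 and 26.0 TPM in replicates 1, 2 and 3. It encodes a receptor for ubiquitin-marked cargo related to p62. Optn, whose product binds ubiquitin on damaged mitochondria and on bacteria, had 9.13, 17.8 and 11.9 TPM. Calcoco1, encoding a receptor for endoplasmic reticulum and Golgi membrane, had 7.12, 11.6 and 7.78 TPM. All 3 receptor genes had their lowest value in replicate 1 and their highest in replicate 2, also in CPM. Of the transcription factors of lysosome and autophagy genes, Tfe3 had 25.5, 38.5 and 26.0 TPM and Tfeb 9.76, 11.4 and 12.4 TPM. Tfe3 exceeded Tfeb in every library, by 1.40 ± 0.35 on the log2 scale.

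TFEB and TFE3 belong to a family of factors that bind the motif CACGTG, and this motif was counted in promoters from 250 bases before to 50 bases after the RefSeq start (GRCm38.p6). Of the 36 genes, 30 had a promoter in that table. The motif, which reads the same on both strands, was in 4 of the 30 (Atg3, Atg5, Atg7 and Atg14), or 13.3% of genes, against 8.09% of the 27025 genes in the table. The longer TCACGTGA, which contains it, was in Atg3 alone, or 3.33%, against 1.12% of genes. Over single promoters, of which a gene can have several, the shares were 7.15% and 0.974% of 32851. The stretches upstream of the start in Atg3 and Atg7, the highest of the conjugation genes, are shown 5′ to 3′ on the plus strand with the motif in capitals.
Atg3, first (chr16:45158723-45158752): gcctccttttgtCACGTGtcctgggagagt
Atg3, the other (chr16:45158746-45158775): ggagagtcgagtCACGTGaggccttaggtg
Atg7 (chr6:114670952-114670981): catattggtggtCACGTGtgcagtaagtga
The motifs of Atg3 began 94 and 71 bases before its start and that of Atg7 132 bases before. That RefSeq start of Atg7 lies 28.0 kb inside the gene as GENCODE annotates it, so it is an internal start. The RefSeq start of Atg14 lies 2.21 kb inside its annotated gene, so it is internal too. A match describes the letters only, and binding was not measured.

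Whether the genes differed between the 3 libraries beyond counting error was tested on counts, with a chi-square index of dispersion over 13237 genes and Benjamini-Hochberg adjustment at 0.05. Of the 36 genes 31 were called, against 67.9% of all genes tested and 75.4% of those whose counts averaged at least 100, as all 36 did. Not called were Atg101 (adjusted p = 0.683), Atg14 (adjusted p = 0.379), Tfe3 (adjusted p = 0.249), Gabarapl2 (adjusted p = 0.118) and Atg4b (adjusted p = 0.0501). The differences were small. The highest CPM was a median of 1.21 times the lowest over the 36 genes, beside 1.27 times over all genes, and the factor was under 1.3 for 24 of them. The median biological coefficient of variation from edgeR was 12.9% over the 36 genes and 17.5% over all genes. It ran from 10.3% for Tfe3 to 26.3% for Atg10. Gene-wise estimates from DESeq2 lay closer together, with medians of 9.13% over the 36 genes and 10.3% over all genes. The median of the mean counts was 1578 over the 36 genes and 589 over all genes tested. These factors and coefficients were not compared at matched counts. Without replicate 1, which carried the stromal markers, 29 of the 36 were called, against 56.7% of all genes. Without replicate 2 17 were called, against 33.4% of all genes. These shares without a replicate cover all genes tested and were not taken at matched counts.

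Only Atg3 was both called and at least 1.5-fold apart between libraries, a class that held 20.9% of all genes and 13.8% of those whose counts averaged at least 100. Atg3 (ENSMUSG00000022663.3, chromosome 16, 45158785 to 45188538) had 48.5, 72.3 and 46.9 CPM in replicates 1, 2 and 3, a factor of 1.54 (chi-square test, adjusted p = 1.18e-61). It stood high in replicate 2 alone, and without that library it was no longer called (adjusted p = 0.546). Without replicate 3 its factor was under 1.5. Gabarap, with 412, 569 and 393 CPM (1.45-fold), and Gabarapl1, with 121, 171 and 129 CPM (1.42-fold), were also highest in replicate 2 with replicates 1 and 3 close together. Both were still called without replicate 2 (chi-square test, adjusted p = 0.00321 and 0.0315).

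The departures did not run one way. Replicate 2 was also highest for Wipi1 (9.90, 13.6 and 9.23 CPM, 1.48-fold) and Atg4a (15.6, 19.2 and 13.6 CPM, 1.42-fold). It was lowest for Map1lc3a (11.9, 8.81 and 12.4 CPM, 1.41-fold), Tfeb (34.1, 28.4 and 39.1 CPM, 1.38-fold) and Atg9a (31.4, 23.6 and 26.8 CPM, 1.33-fold). So among paralogues Gabarap and Map1lc3a departed in opposite directions in the same library. Over the 36, 19 genes were highest in replicate 2, 9 in replicate 1 and 8 in replicate 3, while replicate 2 was highest for 44.3% of all genes, replicate 1 for 26.2% and replicate 3 for 29.5%. The median deviation over the 36 genes was -0.02, 0.05 and -0.03 (log2) in replicates 1, 2 and 3, beside -0.02, 0.03 and -0.01 over all genes.

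**Figure D3:**
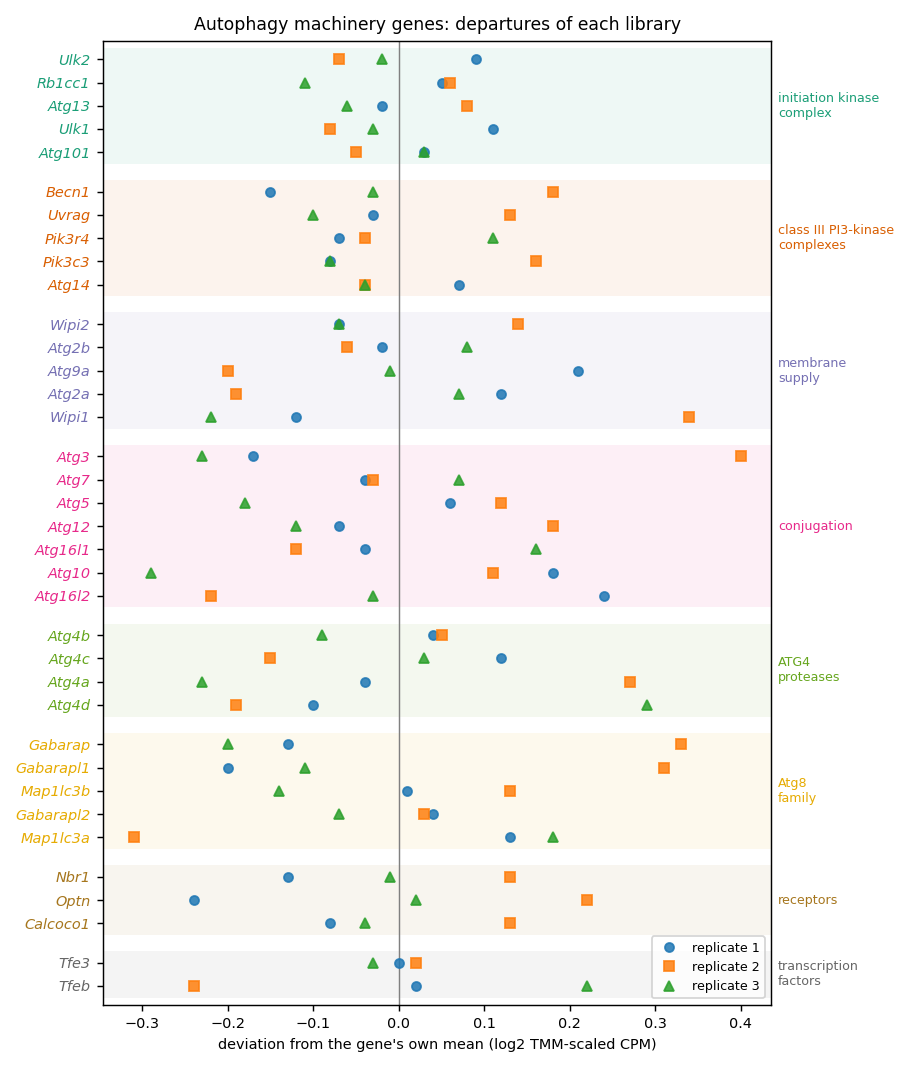
Deviation of each library from the gene's own mean, in log2 TMM-scaled CPM, for the 36 genes by role, in replicates 1, 2 and 3 (points). Atg3, Wipi1 and Gabarap lie furthest right in replicate 2, Map1lc3a lies furthest left there, and most other points are near 0.

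A gene's TPM also counts transcripts that the annotation does not class as coding, such as retained introns and targets of nonsense-mediated decay. For 34 of the 36 genes the transcript with the largest share of TPM was protein coding, against 95.4% of protein-coding genes at 1 TPM or more. The median coding share was 95.7% over the 36 genes and 97.6% over those genes. The exceptions were Becn1 and Atg4d.

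Becn1 (ENSMUSG00000035086.13, chromosome 11, 101285952 to 101302286) was led by Becn1-211, a 487 nt transcript annotated as a retained intron, with 43.6, 58.8 and 46.3% of its TPM in replicates 1, 2 and 3. Coding transcripts held 11.4 ± 1.8% and transcripts marked for nonsense-mediated decay 34.2%. Becn1 was thus 3rd of the 36 by gene level, with 40.7 TPM, and 25th by its coding transcripts alone, with 2.75, 8.38 and 3.39 TPM (mean 4.84 ± 3.08). Since TPM divides by length, the short transcript weighs more there than in counts, of which coding transcripts held 35.04 ± 3.96%. Becn1-211 was assigned only 141, 686 and 269 of the 1602, 4689 and 2633 counts of Becn1 in replicates 1, 2 and 3. Compared with the coding Becn1-205, Becn1-211 keeps only part of a 102 nt intron (chr11:101295432-101295533, minus strand). Becn1-211 starts at base 101295436, so it holds only the last few bases of that intron. It keeps no intron of Becn1-205 whole. The second transcript table also led with Becn1-211, at 42.2 ± 10.5%, and gave coding transcripts 5.44%.

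Atg4d (ENSMUSG00000002820.6, chromosome 9, 21265293 to 21277772) was led by Atg4d-203, annotated as a retained intron of 2123 nt, with 57.7, 51.8 and 62.7% of its TPM. All retained introns together held 79.2 ± 3.8%, and coding transcripts 17.9 ± 1.5% of TPM and 46.0 ± 4.2% of counts. Its coding level was 0.50 ± 0.10 TPM, the lowest of the 36. Compared with the coding Atg4d-201, Atg4d-203 keeps a whole 77 nt intron (chr9:21268528-21268604, plus strand) and part of a 2050 nt intron. The border of the 77 nt intron is shown, the last exon bases in lower case and the first intron bases in capitals.
Atg4d-203 (chr9:21268510-21268539): ggtggcacacatcctcagGTGAGACCCATT
The second transcript table gave Atg4d-203 58.7 ± 4.5% and coding transcripts 7.83%.

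**Figure D4:**
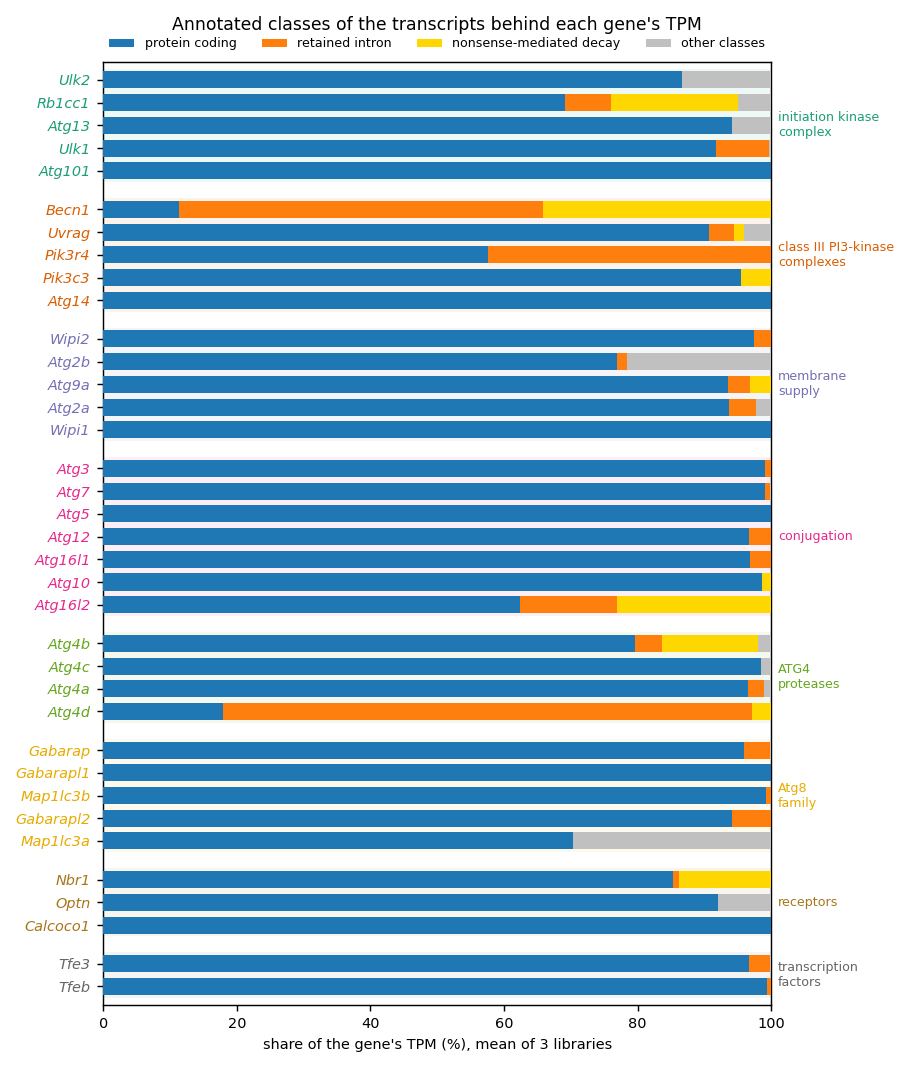
Share of each gene's TPM (%, mean of 3 libraries) held by transcripts annotated as protein coding, retained intron, nonsense-mediated decay or other classes, in the first transcript table. Becn1 and Atg4d are mostly orange and yellow, with coding shares of 11.4 and 17.9%. Coding shares of 90% or more were held by 26 of the 36 genes, beside 6763 of 9396 nuclear protein-coding genes at 1 TPM or more.

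The plot of transcript classes shows that these 2 genes stand apart from the others, of which Pik3r4 had the next lowest coding share. For Pik3r4 the tables disagreed: retained introns held 42.4 ± 3.3% in the first and 11.4% in the second. Uvrag was led by the coding Uvrag-201 with 90.7 ± 6.9% in the first table but by Uvrag-208, a target of nonsense-mediated decay, with 33.7 ± 8.1% in the second, where coding transcripts held 25.2%. Rb1cc1 was led by Rb1cc1-201 with 38.7 ± 1.8% in the first table and Rb1cc1-216 with 19.8 ± 3.1% in the second. The other 34 genes had the same leading transcript in both tables.

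Within the Atg8 family the leading transcripts were coding in both tables. Gabarap-201 held 63.2 ± 1.2% of the TPM of Gabarap, and the shorter Gabarap-202, also coding, 32.7 ± 2.2%. The second table gave them 85.6 ± 1.1% and 13.6 ± 0.6%. Gabarapl1-201 held 98.8 ± 1.2%. Map1lc3b-201 held 91.6 ± 6.4% in the first table and 59.9 ± 11.1% in the second, where Map1lc3b-205 held 32.6 ± 3.4%. Gabarapl2-201 held 94.1 ± 8.2% in the first table and 65.1 ± 4.3% in the second, the rest being mostly the retained intron Gabarapl2-203. Map1lc3a-201 held 76.8, 53.8 and 80.5% in replicates 1, 2 and 3, the remainder going to the non-coding Map1lc3a-203. Map1lc3a was thus lowest in replicate 2 in CPM and in the share of its coding transcript, though its TPM was highest there.

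Other genes of the pathway, in 4 lists, were set beside the 36. Among 19 further receptor genes of selective autophagy 17 had 1 TPM or more, led by Sqstm1 (encoding p62) with 183, 274 and 193 TPM, the ferritin receptor gene Ncoa4 with 129, 228 and 147 TPM and the endoplasmic reticulum receptor gene Rtn3 with 58.9, 86.4 and 62.1 TPM. Sqstm1 and Ncoa4 thus lay far above Nbr1, Optn and Calcoco1. Calcoco2 (encoding NDP52) had 0 counts in every library, which allows 0.128, 0.0595 and 0.0838 CPM in replicates 1, 2 and 3, counting error only.

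Among 12 partners of nucleation and membrane growth 11 had 1 TPM or more. Sh3glb1, whose product binds beclin 1 through UVRAG, had 81.1, 172 and 77.3 TPM, Tecpr1, encoding a partner of ATG5, 55.0, 76.9 and 63.1 TPM and Vmp1, encoding an endoplasmic reticulum scramblase, 41.3, 31.6 and 43.9 TPM. Atg9b, the paralogue of Atg9a, was the lowest with 0.36, 1.06 and 0.48 TPM. All 14 matched genes of fusion with the lysosome had 1 TPM or more. The GTPase gene Rab7 led them with 129, 221 and 141 TPM, followed by the SNARE genes Vamp8 (64.5, 111 and 67.3 TPM) and Vti1b (21.5, 41.7 and 24.9 TPM), and Epg5, encoding a tether, was the lowest at 3.48 ± 0.32 TPM.

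Among 30 upstream kinases and regulators 29 had 1 TPM or more. Fnip2, a partner of folliculin, had 74.7, 111 and 76.9 TPM, the Rag GTPase gene Rragc 66.2, 111 and 68.9 TPM, and Lamtor1, encoding a lysosomal anchor of that GTPase complex, 60.0, 102 and 72.0 TPM. Prkaa2, encoding an AMPK catalytic subunit, was the lowest at 0.06, 0.07 and 0.06 TPM. The median level was 19.0 TPM over the selective receptors, 10.5 TPM over the partners, 19.3 TPM over fusion genes and 15.8 TPM over upstream regulators, against 8.37 TPM over the 36 genes. Of the 75 matched genes in these lists 74 were tested between libraries and 61 were called, or 82.4%. The share was 67.9% over all genes and 75.4% over those whose counts averaged at least 100. Called and 1.5-fold or more apart were 4 genes (Vmp1, Atg9b, Sh3glb1 and Lamtor5), or 5.41%. That class held 20.9% of all genes and 13.8% of those whose counts averaged at least 100. Lamtor5 is named after its values were seen, and differences between these lists and the 36 genes were not tested.

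**Figure D5:**
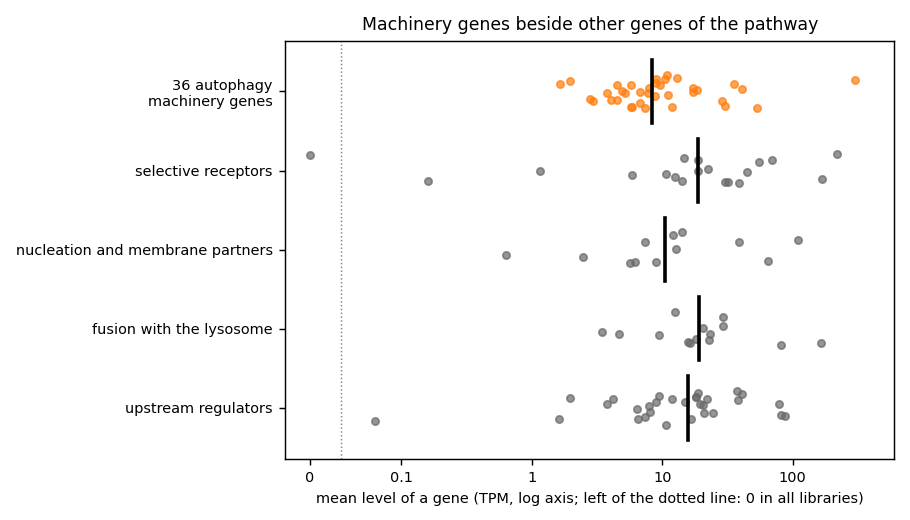
Mean level (TPM, log axis; 3 libraries) of each of the 36 genes (orange) and of the genes of 4 other pathway lists (grey), with the median of each list (black bar). The point left of the dotted line is Calcoco2, at 0 in all libraries, and the median of the 36 genes, 8.37 TPM, lies left of the other 4.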

How the data were processed

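Total RNA-seq of 3 libraries of 1 group was analysed. The authors' deposited gene and first transcript tables hold expected counts (estimated reads, not normalized), TPM (scaled by length to a fixed total), the percent of a gene's TPM per transcript and a score column, the posterior SD of the count, per the file headers. The deposited second transcript table holds estimated counts and TPM in another layout. All use mm10 and GENCODE M21, per the deposited readme files; the aligner, quantifiers, their versions and the use of strand were not given in the sources used here. The posterior SD was 0 in every library for 25 of the 36 genes and at most 2.33% of the count (Atg4d).

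Rows of no annotated gene (26345 of 81881) were left out; they held 0.462% of counts in replicate 1 and less in the others. Expected counts were rounded. edgeR 4.0.16 (R 4.3.3) gave TMM sizes and tagwise dispersions, and DESeq2 1.42.0 other size factors and gene-wise dispersions. The chi-square test against Poisson sampling was run where counts averaged at least 10. Ratios used TPM + 0.1, list medians log2(TPM + 1), and deviations a prior count of 0.5. Other steps used Python 3.11.15, pandas 2.3.3 and scipy 1.17.1. Only the chi-square test was tried on simulated data, as counts drawn by Poisson sampling.

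All 36 genes are named; per library values are given for the 3 highest and the lowest of each role, and for any called with 1.5-fold or more between libraries; of other lists, the 3 highest and the lowest. Genes, lists and tests were chosen with earlier results of these data known. Vamp7 matched no row. The 3 libraries differed by more than sampling noise and were counted separately. Limits from 0 counts (3 counts) reflect counting error alone: no molecular identifiers are described, so reads may repeat a molecule. The coding end of 1 Atg8 gene is not reported here.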

Additional observations from a re-analysis of the deposited data

How the results depend on the processing

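Of the 36 genes 31 were called with DESeq2 size factors (67.7% of all genes) and without a count filter (46.0%), 32 with protein-coding library sizes (29 shared with the 31; 68.5%), 33 in the second transcript table (30 shared; 72.7%), and 17 to 29 without a replicate (33.4 to 56.7%). Called and 1.5-fold or more apart were 2 genes with protein-coding library sizes (21.2% of all genes), 5 in the second transcript table (29.9%), and 0 to 1 without a replicate (7.13 to 14.3%). This fold criterion per setting and the rescaled second table were chosen after seeing the data. The shares of all genes given for these settings were not taken at matched counts. Leaving out replicate 2 ended 14 calls, replicate 3 ended 9 and replicate 1 ended 3 and added 1. Atg4b over Atg4c turned to -0.11 (log2) with protein-coding transcripts only, was 0.58 in the second table, and ran from -0.18 to 0.39 when a replicate was left out; the mean of the other 13 ratios kept its sign under the alternatives run (pseudocount 1, second table, coding transcripts only, and each library left out), but single libraries changed sign for Atg2a over Atg2b (second table and coding transcripts), Atg16l1 over Atg16l2 (second table) and Atg4b over Atg4a (coding transcripts). The median of log2(TPM + 1) over the 36 genes, 3.27, was 5.07 after rescaling to protein-coding genes, 2.10 in the second table and 4.98 in that table rescaled, and 34, 6 and 35 genes had 10 TPM or more there, against 14, since the total each is scaled to differs. No paired analysis was possible because there is 1 group. Levels rest on 3 libraries, and the shallowest, replicate 1, sets the counting error of low genes such as Atg10 and Atg16l2.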
